A study of Mus musculus with 8 samples.

Results

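The members described here are 41 autophagy and mitophagy genes among the 21165 gene rows of a read count table from embryonic mouse cortex. They were chosen by name, as every symbol that opens with Atg and a digit together with the LC3 and GABARAP genes, the initiating kinases, the lipid kinase complexes, the WIPI genes, the cargo receptors, the mitophagy genes Pink1, Park2, Bnip3 and Bnip3l, and the lysosomal membrane genes Lamp1 and Lamp2. A row also needed at least 80 counts summed over the 8 libraries. These names matched 42 rows, of which 1, a second Park2 row with 23 counts in all, was under that minimum. The rule itself used no difference between genotypes, but the names were chosen with earlier results of these data known. The names Tfeb and Atg101, which also fall under the rule, matched no row of the count table.

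The libraries came from cortices of E18.5 embryos of a constitutive NUAK1 knockout line on a C57Bl/6JRj background, 4 homozygous KO (2 males and 2 females) and 4 WT (1 male and 3 females), and the labels place both genotypes in the same 3 litters. The deletion is present in every cell of a KO embryo, and the tissue is whole microdissected cortex in which maturing neurons are the main population. NUAK1 is a kinase of the AMPK-related family, and the study asked how its loss affects mitochondria and axon branching in cortical neurons. The columns of the count table carry only the genotype and a running number, so libraries are named here as KO R1 to R4 and WT R1 to R4, with no litter or sex.

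The libraries held between 9643711 and 27014858 counts, of which the members took 0.378% to 0.391%. Values below are normalized counts, in which each library was brought to 1 common size after TMM normalization, unless a level per exon length is named. Nuak1 itself had 11.1 to 20.5 normalized counts in KO and 877 to 1445 in WT, so each column followed its label. KO R1 stood apart from the other libraries, since the 9 markers of meningeal fibroblasts summed to 10268 normalized counts there and to 318 to 564 in the other libraries. Its sums were also the highest for the 8 endothelial markers, at 6227 against 4402 to 5089, and for the 8 microglia markers, at 952 against 474 to 682. The sums over markers of cortical projection neurons ranged from 12661 to 20615, lowest in WT R4. Red blood cell markers had their highest sum in KO R2, at 7071, and the next in KO R1, at 5530, against 1609.7 to 3813 in the other libraries. Because the tissue is a mixture, fewer cells of a type and less RNA per cell cannot be told apart.

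Autophagy delivers cytoplasm and organelles to the lysosome inside a double membrane, the autophagosome. The ULK1 kinase complex starts the process, a lipid kinase complex around PIK3C3 and Beclin 1 marks the membrane, ATG9 vesicles and ATG2 supply lipid, and a pair of ubiquitin-like conjugation systems couples proteins of the ATG8 family (LC3 and GABARAP) to the growing membrane, where cargo receptors bind them. Mitophagy is the form that removes mitochondria, through PINK1 and Parkin or through receptors on the outer mitochondrial membrane such as BNIP3 and NIX, and neurons depend on it to clear damaged mitochondria from long axons.

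None of the members passed the test of KO against WT cortex. edgeR's low-count filter kept 40 members, of which 0 had an adjusted p under 0.05 by edgeR's quasi-likelihood test, where 0.0709% of the 12699 genes tested did. At an unadjusted p under 0.05 the count was also 0 of 40, against 7.69% of all tested genes (4.51% higher and 3.18% lower in KO) and 8.62% of the 6161 genes with a mean over 500 normalized counts. DESeq2's Wald test on the same genes likewise called 0 members at either threshold. In 0 of the 40 members did the 4 KO libraries lie wholly above or below the 4 WT libraries, a separation seen in 4.49% of all tested genes and in 4.98% of those over 500. The smallest unadjusted p, 0.0703, belonged to Atg4c, and its edgeR adjusted p of 0.693 was the lowest of the members.

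The log2 fold changes of the members, KO against WT, lay between -0.16 for Map1lc3a and 0.12 for Atg14, with a median of -0.0013 beside -0.012 over all tested genes. They were negative in 21 of 40, near the 54.4% of all tested genes. The median absolute log2 fold change was 0.043 for the members and 0.082 for all tested genes, but members were also counted more deeply, with a median of 1205 against 469 normalized counts. Among genes with a mean over 500 the corresponding medians were 0.040 for 31 members and 0.056 for all. The 95% interval of the fold change stayed within 1.2-fold in either direction for 29 of 40 members, against 39.9% of all tested genes, and for 27 of the 31 members with a mean over 500, against 70.9% of such genes. All 40 intervals stayed within 2-fold, and the widest, from -0.76 to 0.62, was that of Atg9b, the least abundant member tested.

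**Figure D1:**
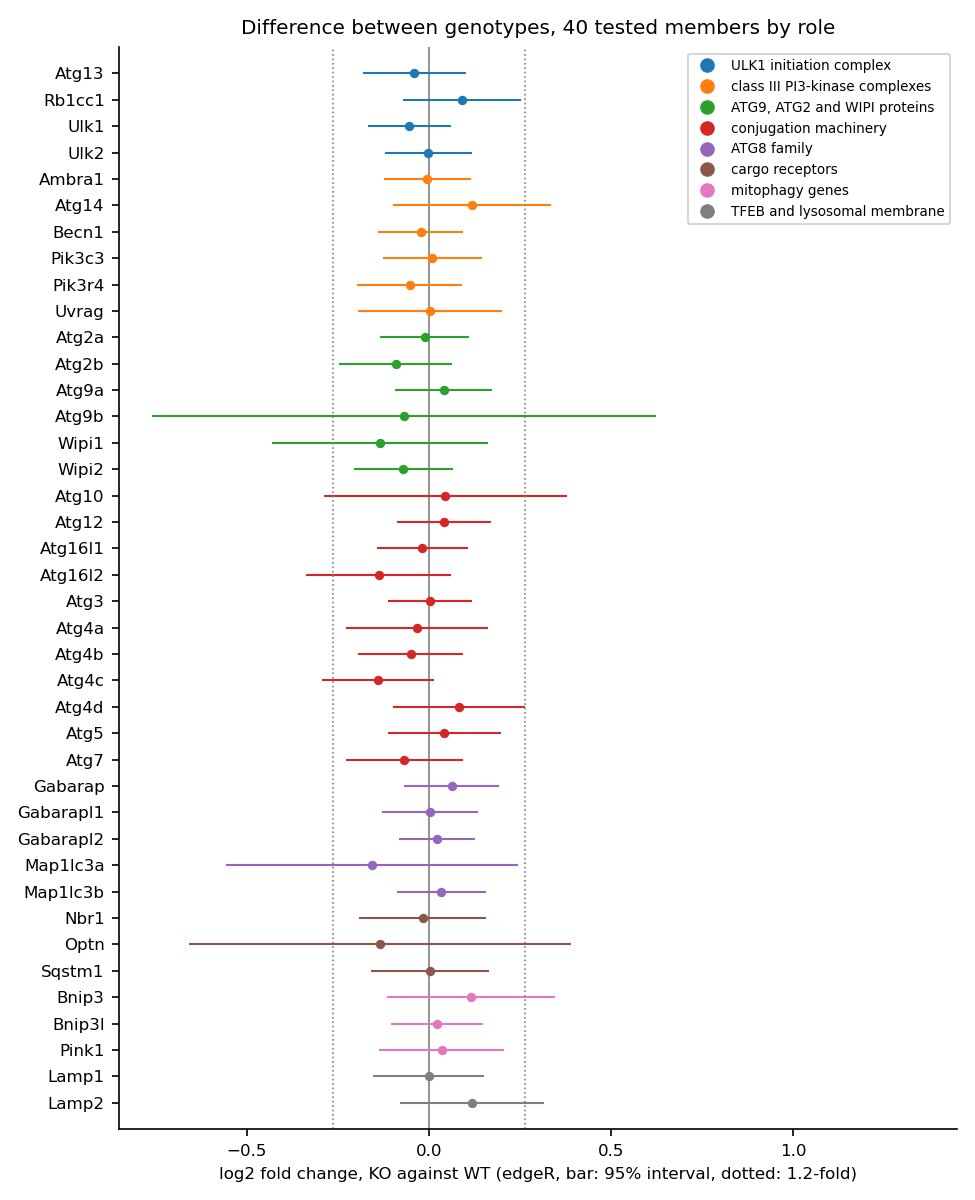
The log2 fold change of each of the 40 tested members, KO against WT, is drawn with its 95% interval from edgeR, in order of role from initiation to the lysosome. Every interval crosses 0, the dotted lines mark 1.2-fold, and the wide intervals are those of Atg9b, Optn and Map1lc3a.

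**Figure D2:**
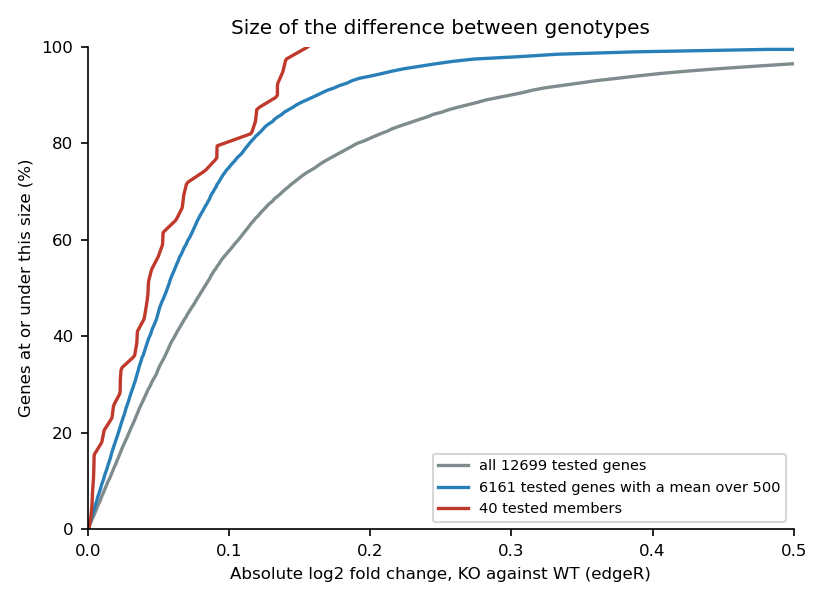
The curves give the percentage of genes whose absolute log2 fold change is at or under the value on the horizontal axis, for the 40 tested members, for all 12699 tested genes and for the 6161 with a mean over 500 normalized counts. The members reach 100% at 0.16, while the other curves run on past the right edge at 0.5.

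Levels per exon length spread over a wide range among the members. In WT, Gabarap was the highest at 134 ± 6.48 CPM (counts scaled to library size) per kb of exon (SD, n = 4), followed by Lamp1 at 123 ± 12.8, Gabarapl1 at 83.4 ± 5.16, Map1lc3b at 76.3 ± 4.90, Gabarapl2 at 66.4 ± 2.10 and Map1lc3a at 60.2 ± 18.9. Within that order Gabarap and Lamp1 overlapped in mean ± SD, as did Gabarapl1 and Map1lc3b, whereas Lamp1 and Gabarapl1 did not. At the other end stood Atg9b at 0.745 ± 0.379, Atg10 at 3.07 ± 0.419 and Optn at 3.32 ± 1.39, of which Atg9b and Atg10 are named here after their values were seen. By their WT means, the 5 genes of the ATG8 family and Lamp1 were thus the most abundant of the list per exon length. Map1lc3a, however, overlapped in mean ± SD with Ulk2 at 52.9 ± 2.65, Sqstm1 at 50.4 ± 5.47 and Nbr1 at 50.4 ± 5.83. Its place leaned on WT R4, at 1725 normalized counts against 942, 1002 and 1028 in WT R1 to R3. Lamp2 stood at 4.36 ± 0.241, and 9 of the 11 conjugation genes lay between 5.52 for Atg16l2 and 24.6 for Atg3.

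**Figure D3:**
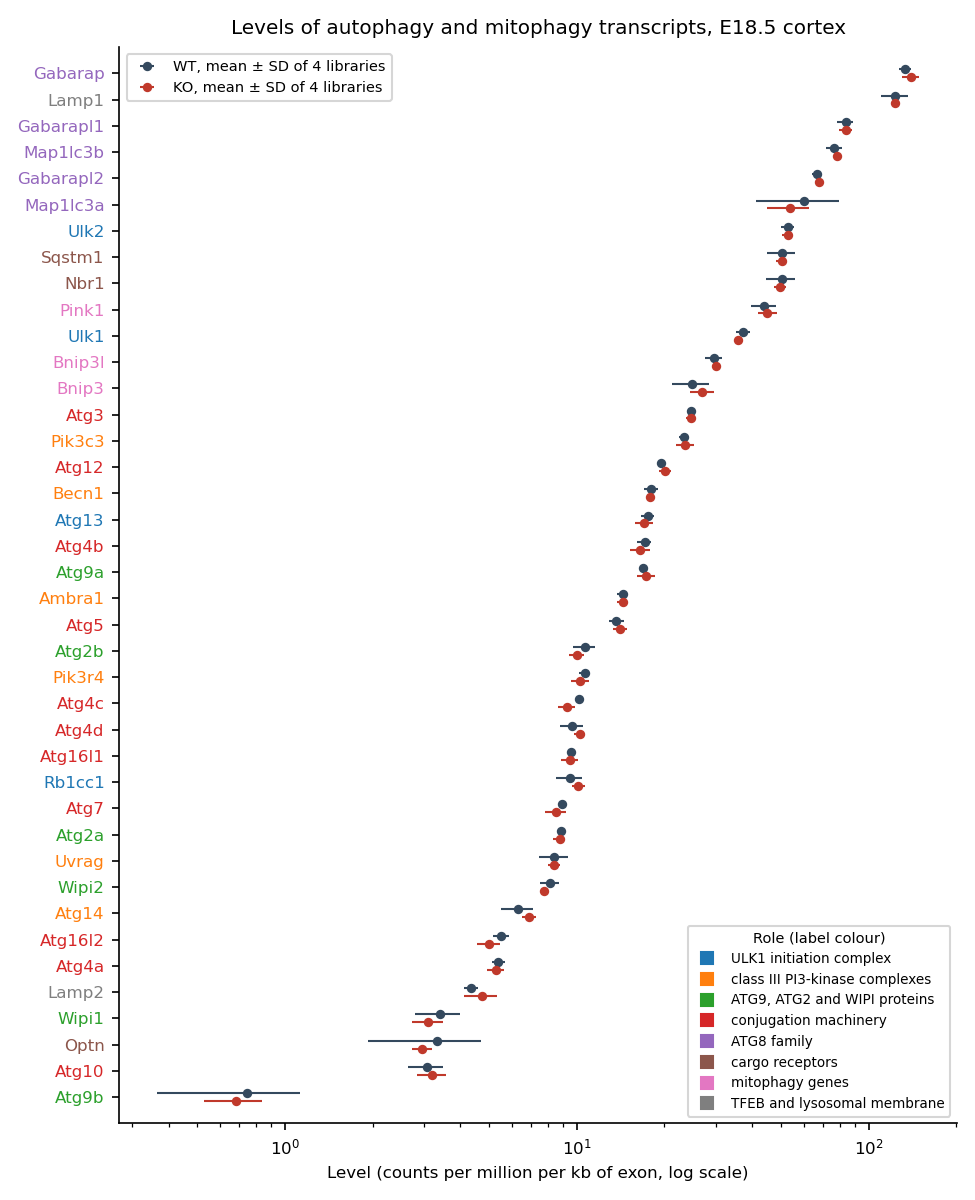
Mean ± SD of 4 WT and 4 KO libraries is plotted for the 40 members with a position in the annotation, in CPM per kb of exon on a log axis, with names coloured by role. The KO and WT points of each gene lie side by side from Atg9b at the bottom to Gabarap at the top, and the broad bars are the WT values of Map1lc3a, Optn and Atg9b.

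The initiation complex joins the kinases ULK1 and ULK2 to ATG13 and to the scaffold RB1CC1, also called FIP200. Ulk2 was the more abundant kinase gene per exon length, at 52.9 ± 2.65 CPM per kb in WT against 37.2 ± 1.96 for Ulk1. A stretch of 445 bases elsewhere in the genome matched Ulk1 at 100% identity. Such sequence covers 8.54% of its longest protein-coding transcript. Ulk1 had 3038, 3135, 3162 and 3004 normalized counts in KO libraries R1 to R4 and 3272, 3104, 3401 and 3023 in WT libraries R1 to R4, and these ranges overlapped, with a log2 fold change of -0.053 (95% interval -0.17 to 0.060). Ulk2 had 5173, 5545, 5119.7 and 5019 normalized counts in KO libraries R1 to R4 and 5133, 4902, 5501 and 5349 in WT libraries R1 to R4, with the highest value in KO R2 and the lowest in WT R2. Its log2 fold change was -0.0021 (95% interval -0.12 to 0.12). Rb1cc1 had the smallest p of this group, with 2521, 2499.5, 2549 and 2274 normalized counts in KO libraries R1 to R4 and 2256, 2552, 2409.8 and 2003 in WT libraries R1 to R4. WT R4 was the lowest of the 8 libraries and WT R2 the highest, so WT enclosed all KO values, and the log2 fold change was 0.091 (95% interval -0.071 to 0.25, edgeR adjusted p = 0.827). Over the 4 genes of the complex, log2 fold changes ran from -0.053 to 0.091, 1 above and 3 below 0.

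Phosphatidylinositol 3-phosphate on the forming membrane is made by PIK3C3, also called VPS34, which works with the regulatory subunit PIK3R4, with Beclin 1 (Becn1) and with either ATG14 or UVRAG. AMBRA1 is a positive regulator of Beclin 1. The 6 genes were split evenly, 3 above and 3 below 0, and their median log2 fold change was 4.8e-05. Becn1 had 1991, 2097, 2094 and 2116 normalized counts in KO libraries R1 to R4 and 2037, 2252, 2144 and 1993 in WT libraries R1 to R4, an overlap that left a log2 fold change of -0.023 (95% interval -0.14 to 0.094). Exons of Cntd1 on the other strand cover 43.9% of the exon bases of Becn1, and the setting for strand at the counting step is not given in the sources used here. Exons of other genes also cover 31.1% of the exon bases of Atg4d (Kri1), 17.3% of Sqstm1 (3010026O09Rik) and 7.85% of Lamp1 (Grtp1). For Rb1cc1, Gabarapl1 and Optn the share was 3.80%, 1.98% and 1.95%. The same limit holds for the counts of these genes. Pik3c3, the most abundant of the group per exon length at 23.4 ± 0.945 CPM per kb in WT, had 1739.7 ± 126 normalized counts in KO and 1726 ± 69.7 in WT (SD, n = 4), and its log2 fold change was 0.0097 (95% interval -0.13 to 0.14). Atg14, which directs the kinase to autophagosome formation, had 375, 418, 371 and 403 normalized counts in KO libraries R1 to R4 and 354, 403, 379 and 297 in WT libraries R1 to R4. WT R4 alone lay well under the rest, and the log2 fold change of 0.12 (95% interval -0.097 to 0.34) was the highest among the members.

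ATG9 carries lipid vesicles to the site of formation, ATG2 transfers lipid along a bridge between membranes, and the WIPI proteins bind phosphatidylinositol 3-phosphate. Of the 6 genes, 5 had a log2 fold change under 0 and 1 above it, with a median of -0.069, the lowest of the role groups, and none with an unadjusted p under 0.05. Atg2b had 1651, 1841, 1714 and 1622 normalized counts in KO libraries R1 to R4 and 1827, 1847, 1988 and 1598 in WT libraries R1 to R4. WT R3 was the highest library and WT R4 the lowest, and the log2 fold change was -0.091 (95% interval -0.25 to 0.064, edgeR adjusted p = 0.820). Without WT R4 it was -0.14, and this was the only member with an unadjusted p under 0.05 in that fit, where 12.4% of all genes had one. Atg9a, the form used in most tissues, had 1179.9 ± 84.9 normalized counts in KO and 1148 ± 12.2 in WT (SD, n = 4), the WT libraries being nearly identical, and a log2 fold change of 0.041 (95% interval -0.092 to 0.17). Its paralog Atg9b had only 42.3, 38.0, 38.4 and 59.4 normalized counts in KO libraries R1 to R4 and 45.2, 31.5, 33.0 and 84.5 in WT libraries R1 to R4, with WT R4 above and WT R2 and R3 below all others, and exons of Nos3 cover 7.45% of its exon bases on the other strand. Wipi1 was the only other member of the group with fewer than 500 normalized counts on average, at 226 ± 27.8 in KO and 247 ± 43.6 in WT, and its log2 fold change was -0.13 (95% interval -0.43 to 0.16). Atg9b and Wipi1 are named here after their values were seen.

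Conjugation of ATG8 proteins to lipid runs through ATG7 as the activating enzyme, ATG3 and ATG10 as conjugating enzymes, the ATG12, ATG5 and ATG16L1 complex as the ligase, and the ATG4 proteases, which prepare ATG8 proteins and later release them. The 11 genes had 5 log2 fold changes above and 6 below 0, between -0.14 and 0.083. Atg4c had 483, 552, 486 and 533 normalized counts in KO libraries R1 to R4 and 589.8, 557, 546 and 568 in WT libraries R1 to R4. The WT libraries lay above 3 of the KO libraries, and KO R2 exceeded WT R3 by a few counts, so that the genotypes overlapped in a single pair of libraries. The log2 fold change was -0.14 (95% interval -0.29 to 0.014, edgeR adjusted p = 0.693), larger than the SD within a genotype of 0.076 on the log2 scale. An exact 2-sided permutation test over the 8 libraries gave p = 0.0571, where 4 against 4 cannot go below 0.0286. With KO R1 left out it was -0.11, and over all 8 ways of leaving out 1 library it stayed between -0.16 and -0.11.

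Atg3, the most abundant conjugation gene per exon length, was among the steadiest members. It had 1308, 1323, 1308 and 1213 normalized counts in KO libraries R1 to R4 and 1294, 1322, 1233 and 1287 in WT libraries R1 to R4, a spread from lowest to highest of 1.09-fold over all 8 libraries, and a log2 fold change of 0.0029 (95% interval -0.11 to 0.12). The other ATG4 proteases Atg4a, Atg4b and Atg4d had log2 fold changes of -0.033, -0.050 and 0.083, none with an unadjusted p under 0.05. Atg16l2, a paralog of Atg16l1, had 321 ± 29.9 normalized counts in KO and 354 ± 21.3 in WT (SD, n = 4) and a log2 fold change of -0.14 (95% interval -0.34 to 0.060), and it alone of the members reached an unadjusted p under 0.05 once KO R4 was left out, as did 6.43% of all genes. Of the 40 tested members, Atg4c and Atg16l2 were the 2 whose log2 fold change exceeded their own SD within a genotype. Atg4a, Atg4b, Atg4d and Atg16l2 are named here after their values were seen. Near-identical sequence elsewhere in the genome covers 96.1% of the longest protein-coding transcript of Atg4a, so its counts are uncertain. Atg4a also lies on the X chromosome, and the part of the unequal sexes of the groups in its value was not tested.

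The ATG8 family is the part of the pathway most often followed as a marker, because lipid-bound LC3 stays on the autophagosome. Its 5 genes summed to 12102 to 12996 normalized counts in KO and to 11591 to 13192 in WT, so the WT range enclosed the KO range, and 4 of the 5 had a log2 fold change just above 0. Map1lc3b (NCBIM37 chr8:124114368-124121947), the gene of LC3B, had 2159, 2173, 2262 and 2250.2 normalized counts in KO libraries R1 to R4 and 2187, 2339.7, 2074 and 2029 in WT libraries R1 to R4. Its values interleaved between genotypes and its log2 fold change was 0.035 (95% interval -0.087 to 0.16). Gabarap (chr11:69804645-69808453) had 4646, 3983, 4222 and 4154 normalized counts in KO libraries R1 to R4 and 4078, 4188, 3790.5 and 4228 in WT libraries R1 to R4, with the highest value in KO R1 and the lowest in WT R3, and a log2 fold change of 0.062 (95% interval -0.069 to 0.19). Gabarapl1 (chr6:129483218-129492349) had 2439 ± 126 normalized counts in KO and 2433 ± 150.4 in WT (SD, n = 4), and Gabarapl2 (chr8:114464603-114477512) had 2589 ± 80.3 in KO and 2549 ± 80.5 in WT. Their log2 fold changes were 0.0039 (95% interval -0.13 to 0.14) and 0.024 (95% interval -0.081 to 0.13). Gabarapl2 varied least of all members, 1.07-fold from its lowest to its highest library. Near-identical stretches elsewhere in the genome cover 55.2% of the longest protein-coding transcript of Gabarapl2 and 39.5% of that of Map1lc3b. This makes their absolute levels uncertain.

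Map1lc3a (chr2:155102033-155103809), the gene of LC3A, varied 1.88-fold between its lowest and highest library, where the other 4 genes of the family varied 1.07-fold to 1.23-fold. It had 1304, 918, 959 and 1010.4 normalized counts in KO libraries R1 to R4 and 942, 1002, 1028 and 1725 in WT libraries R1 to R4. WT R4 stood far above all other libraries and KO R1 came next, while the remaining 6 lay between 918 and 1028. The log2 fold change of -0.16 (95% interval -0.56 to 0.25, edgeR adjusted p = 0.891) was the lowest of all members, and its sign rested on 1 library, as it was 0.086 without WT R4, -0.27 without KO R1 and -0.029 (95% interval -0.17 to 0.12) without both. The sums of meningeal, endothelial and microglia markers were highest in KO R1, and those of projection neuron markers lowest in WT R4, and the part of either in these values was not tested.

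Cargo receptors tether ubiquitin-tagged material to ATG8 proteins. Sqstm1, the gene of p62, is itself degraded by autophagy as a protein and is often read as a marker of flux. It had 2712, 2809.7, 2696 and 2971 normalized counts in KO libraries R1 to R4 and 2704, 2485, 2785 and 3209 in WT libraries R1 to R4. The extremes of both signs were WT libraries, R4 and R2, and the log2 fold change was 0.0032 (95% interval -0.16 to 0.17). Nbr1 is a receptor related to p62 and had 5609 ± 259.7 normalized counts in KO and 5670.1 ± 656 in WT (SD, n = 4), with a log2 fold change of -0.017 (95% interval -0.19 to 0.16), and it is named here after its values were seen. Optn (chr2:4941688-4985097), the gene of optineurin, a receptor for ubiquitinated mitochondria, had 182, 166, 186 and 199.7 normalized counts in KO libraries R1 to R4 and 187, 118, 194 and 324 in WT libraries R1 to R4. The KO libraries agreed within a narrow band, whereas WT R2 and WT R4 differed by 2.74-fold. Its log2 fold change was -0.13 (95% interval -0.66 to 0.39, edgeR adjusted p = 0.929), and it was 0.16 without WT R4 and -0.34 without WT R2.

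Among the mitophagy genes, Pink1 encodes the kinase that accumulates on depolarised mitochondria and Park2 encodes Parkin, the ubiquitin ligase that it activates. Pink1 had 2128, 2004, 1779 and 2047 normalized counts in KO libraries R1 to R4 and 1884, 1776, 1892 and 2221 in WT libraries R1 to R4. WT R4 was the highest and WT R2 the lowest library, and the log2 fold change was 0.035 (95% interval -0.14 to 0.21). Park2 was barely detected, with raw counts of 11, 8, 18 and 15 in KO libraries R1 to R4 and 15, 11, 6 and 3 in WT libraries R1 to R4, and it did not pass the filter on low counts. Fitted without that filter its log2 fold change was 0.26, and the wide 95% interval of -0.58 to 1.1 held values of both signs. Bnip3, whose product is a hypoxia-inducible receptor on the outer mitochondrial membrane, had 1126, 949, 916 and 1045 normalized counts in KO libraries R1 to R4 and 999.8, 1078, 782 and 848 in WT libraries R1 to R4. KO R1 was the highest and WT R3 the lowest, with WT R2 above 3 of the KO libraries, and the log2 fold change was 0.12 (95% interval -0.11 to 0.35, edgeR adjusted p = 0.847). Bnip3l, the gene of the related receptor NIX, had 1916 ± 64.7 normalized counts in KO and 1882 ± 121 in WT (SD, n = 4) and a log2 fold change of 0.023 (95% interval -0.10 to 0.15). Near-identical sequence elsewhere in the genome covers 94.2% of the longest protein-coding transcript of Bnip3 and 39.6% of that of Bnip3l. The counts of both genes are therefore uncertain.

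LAMP1 and LAMP2 are the main glycoproteins of the lysosomal membrane. Lamp1 (chr8:13159135-13175338) had 4520.1, 4718, 4446 and 4668 normalized counts in KO libraries R1 to R4 and 4565, 4182, 4357 and 5268 in WT libraries R1 to R4. The 4 KO libraries lay inside the WT range, whose upper end was again WT R4, and the log2 fold change was -0.00060 (95% interval -0.15 to 0.15). Lamp2 (chrX:35754534-35809631), on the X chromosome, had 890.4, 687, 727 and 687 normalized counts in KO libraries R1 to R4 and 672, 682, 657 and 743 in WT libraries R1 to R4. KO R1 alone stood above the other 7 libraries, the library in which the meningeal, endothelial and microglia marker sums were highest, and the log2 fold change of 0.12 (95% interval -0.078 to 0.32, edgeR adjusted p = 0.817) became 0.036 without it. The part of those cells, and of the unequal sexes of the groups, in this X-linked value was not tested.

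**Figure D4:**
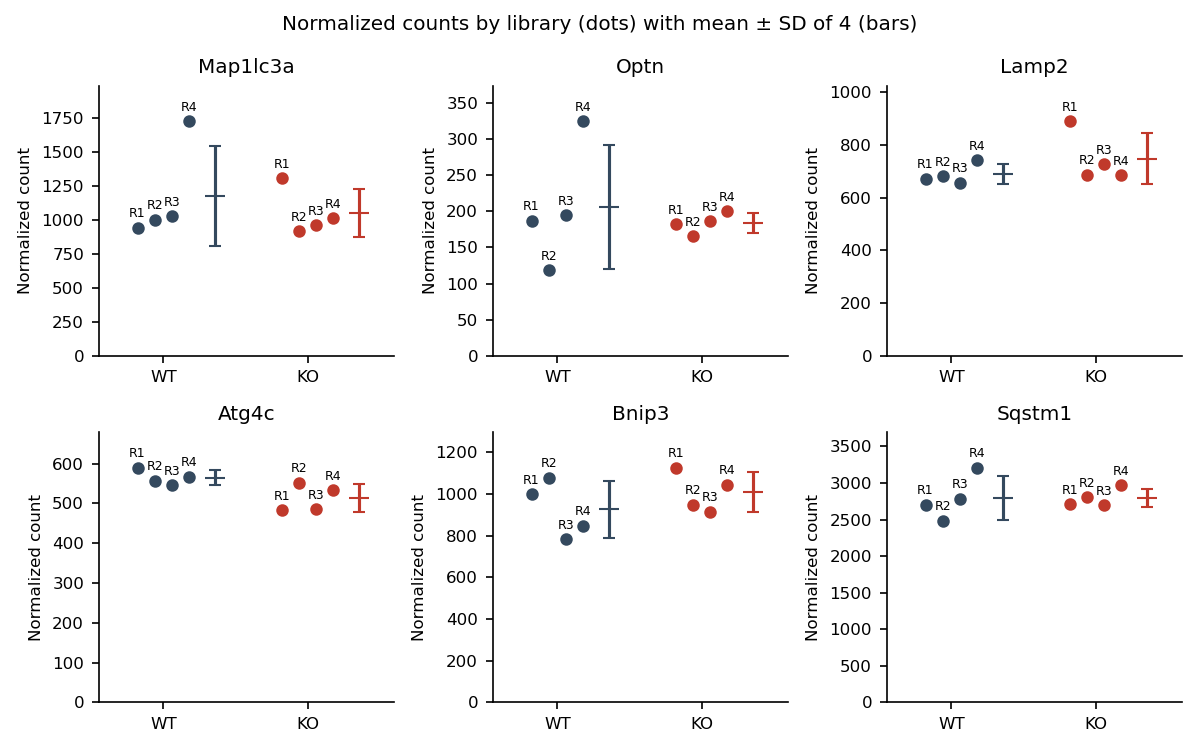
Normalized counts of Map1lc3a, Optn, Lamp2, Atg4c, Bnip3 and Sqstm1 are shown for each library as a labelled dot, with the mean ± SD of 4 beside them and axes from 0. WT R4 stands alone for Map1lc3a at 1725 and for Optn at 324, KO R1 for Lamp2 at 890.4, and the genotypes overlap in all 6 genes.

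Across the list, the SD within a genotype exceeded the absolute log2 fold change in all but 2 of the 40 tested members. It had a median of 0.086 on the log2 scale over the tested members, against 0.096 over tested genes with a mean over 500, and 36 of the 41 members varied less than 1.5-fold from their lowest to their highest library. The median deviation of the members from their own means over the 8 libraries, on the log2 scale, lay between -0.026 in KO R1 and 0.041 in KO R2, the latter about as large as the median absolute log2 fold change of the members. WT R4, the library with the fewest counts, held the lowest value of 11 members and the highest of 7, KO R1 the lowest of 9 and the highest of 3, and KO R2 the lowest of 3 and the highest of 9. Leaving out KO R1 brought the number of members with a negative log2 fold change from 21 of 40 to 12 of 41, that is 29.3%, where all genes in that fit stood at 50.1%. None of those members had an unadjusted p under 0.05 in that fit either, and their median log2 fold change was 0.011.

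**Figure D5:**
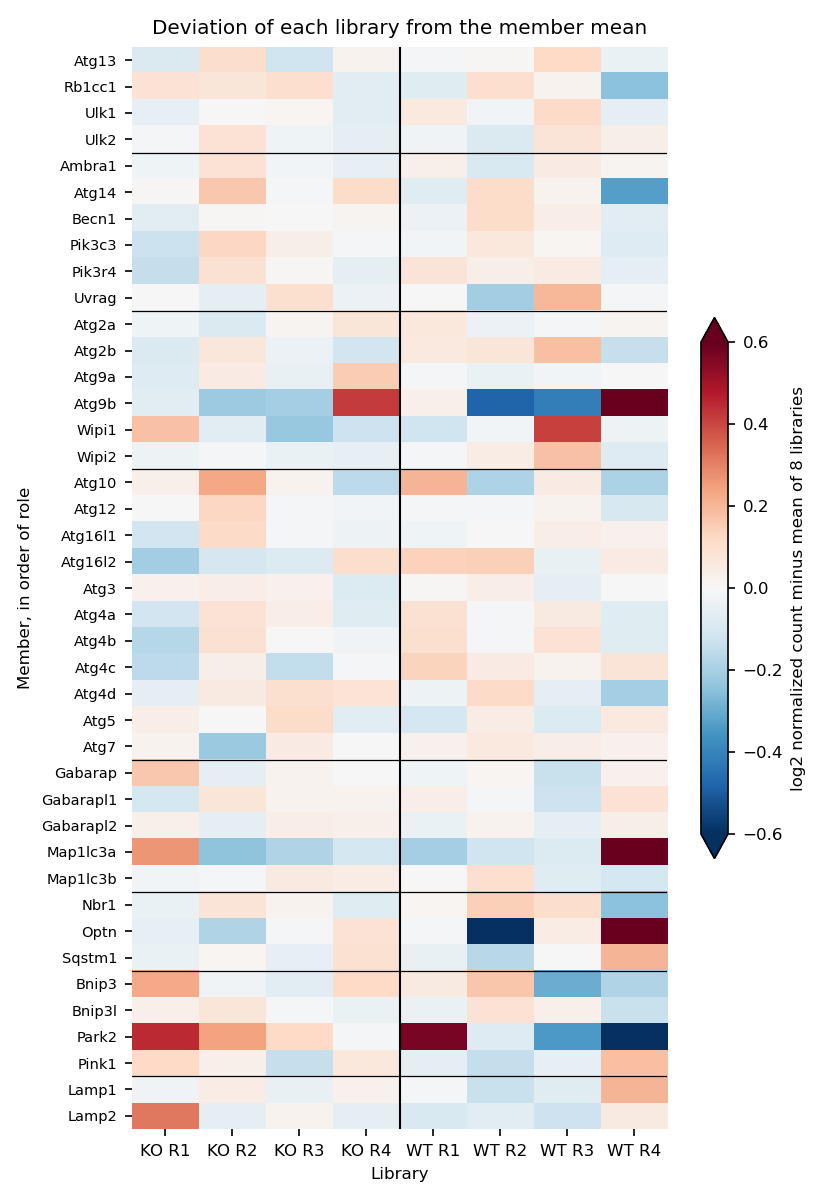
Each cell gives the log2 normalized count of a member (rows, in order of role) in a library (columns) minus the mean over the 8 libraries, with red above and blue below that mean. The deepest colours belong to Atg9b, Map1lc3a, Optn and Park2, and no column is of a single colour.

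Genes that act around the members, in 7 lists of 137 names of which 123 were rows and 122 were tested, gave a similar picture. Of the 122, 56 had a log2 fold change above and 66 below 0, 0 had an adjusted p under 0.05 by edgeR, and 2 had an unadjusted p under 0.05, both higher in KO, where 7.69% of all tested genes had such a p in either direction and 4.51% higher in KO. The list of mTORC1, the kinase complex that restrains ULK1, and of its regulators had 5 above and 9 below 0 of 14 tested. That count does not separate the complex from its regulators. The other autophagosome factors had 5 above and 12 below of 17. Fusion of autophagosome and lysosome had 5 above and 8 below of 13, and the transcription factors of autophagy genes, among them Foxo3 and Atf4, 5 above and 5 below of 10. The lysosomal enzymes and transporters, with 17 above and 14 below of 31, and the subunits of the V-ATPase, the proton pump of the lysosome, with 11 above and 7 below of 18, were the 2 lists with a median log2 fold change above 0. The medians of the 7 lists ran from -0.043 for the other autophagosome factors to 0.015 for the V-ATPase, beside -0.012 over all tested genes.

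The 2 genes with an unadjusted p under 0.05 were both in the list of other mitophagy factors, which had 8 above and 11 below of 19. Tomm7, a small subunit of the import pore of the outer mitochondrial membrane that helps to hold PINK1 there, had 1238, 1011, 1213 and 1016 normalized counts in KO libraries R1 to R4 and 912, 978, 809.9 and 1083 in WT libraries R1 to R4. WT R4 exceeded KO R2 and KO R4, and the log2 fold change was 0.25 (95% interval 0.029 to 0.46, edgeR adjusted p = 0.629). Fkbp8, an LC3-binding receptor on the same membrane, had 5927, 5773, 5823 and 6017 in KO and 5549.7, 5348, 5205 and 5701 in WT, with every KO library above every WT library. Its log2 fold change was 0.11 (95% interval 0.0066 to 0.22, edgeR adjusted p = 0.631). Rab7, the small GTPase that guides fusion with the lysosome, was the only other of the 122 genes without overlap, at 3942, 3941, 3910.5 and 3934 in KO and 3875, 3734, 3629 and 3863 in WT, with a log2 fold change of 0.059 (95% interval -0.039 to 0.16), and it was named after its values were seen. These 2 of 122 stand beside the 4.49% of all tested genes without overlap, and 4.98% of those with a mean over 500.

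TFEB and its relatives TFE3 and MITF bind promoters of many lysosomal and autophagy genes at a palindromic motif with CACGTG at its core. RefSeq promoter windows (GRCm38.p6, 250 bases before to 50 after a start) matched 33 of the 41 members, and CACGTG, which reads the same on both strands, was in those of 6, Atg14, Atg3, Atg5, Atg7, Bnip3 and Lamp1, that is 18.2% beside 8.09% of all 27025 genes in the table. The 27025 genes had 32851 promoters, so a match can lie at an alternative start, and start use in these libraries was not tested. The longer letters TCACGTGA, which contain CACGTG, were found in 1 member, Atg3, and in 1.12% of all genes. Among the 6 genes with the motif the log2 fold changes had a median of 0.023, 2 of them below 0, and among the 27 tested members whose window lacked it the median was -0.011, 16 of them below 0. Lamp1 held 4 copies, beginning at positions -61, -45, -28 and -15 from the start, where 0.0925% of all genes held more than 2. The 150 bases before the start are shown for the 5 members whose matches lie wholly upstream of it, to let the letters be read beside the values above, on the strand of the gene with CACGTG in capitals. They span chr8:13159011-13159160 (plus strand) for Lamp1, chr16:45158679-45158828 (plus) for Atg3, chr10:44268189-44268338 (plus) for Atg5, chr6:114670946-114671095 (plus) for Atg7 and chr7:138909507-138909656 (minus) for Bnip3, in GRCm38.p6 and not in the build of the counts.
Lamp1: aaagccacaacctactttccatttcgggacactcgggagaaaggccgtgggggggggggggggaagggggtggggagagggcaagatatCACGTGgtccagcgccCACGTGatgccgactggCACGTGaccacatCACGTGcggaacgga
Atg3: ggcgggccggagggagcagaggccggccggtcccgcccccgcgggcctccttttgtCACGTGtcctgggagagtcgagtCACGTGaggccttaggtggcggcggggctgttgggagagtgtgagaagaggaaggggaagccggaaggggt
Atg5: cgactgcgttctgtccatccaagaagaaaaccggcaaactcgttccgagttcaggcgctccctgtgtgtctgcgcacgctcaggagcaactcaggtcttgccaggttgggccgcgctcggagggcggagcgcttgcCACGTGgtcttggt
Atg7: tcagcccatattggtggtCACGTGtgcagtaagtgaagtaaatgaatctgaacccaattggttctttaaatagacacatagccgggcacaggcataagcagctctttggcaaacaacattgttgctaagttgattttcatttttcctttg
Bnip3: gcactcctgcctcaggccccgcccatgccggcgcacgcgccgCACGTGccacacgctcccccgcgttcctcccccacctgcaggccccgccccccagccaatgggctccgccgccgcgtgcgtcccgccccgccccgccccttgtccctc
A match describes the letters only. Of these 5 genes, Lamp1 was the most abundant and Bnip3 had the highest log2 fold change, and none had an unadjusted p under 0.05.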

How the data were processed

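RNA of 4 KO and 4 WT cortices was sequenced as stranded, polyA-selected, paired-end libraries. Trimming by the authors used Cutadapt 1.13 and Prinseq, mapping to mm9 used TopHat2 2.0.13 with Samtools 0.1.19, and HTSeq-count gave the deposited whole-number counts per gene, which are not normalized. The strand setting and the handling of reads with several positions at the counting step are not given in the sources used here.

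The table has 0 per-library columns that were not used. Genotype was read from the column names. KO was compared with WT by the quasi-likelihood test of edgeR 4.0.16 in R 4.3.3, after TMM normalization and filterByExpr, with Benjamini-Hochberg adjustment over all 12699 tested genes. Intervals of 95% come from the F statistic of that fit. The labels name 8 separate embryos, and the closest pair within a genotype differed by a chi-square of 5.92 per degree of freedom over genes, above sampling noise. Levels per exon length use the union of exons annotated on NCBIM37 (the same assembly as mm9), where 40 members have a position. Near-identical copies of the longest protein-coding transcript of each member were searched with blastn 2.17.0. The limits were an identity of at least 97% over at least 200 bases. Exact permutation tests used log2(normalized count + 0.5).

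Members, roles, pathway lists and marker lists were chosen with earlier results of these data known, and the 1.2-fold limit and the 500-count background after the values were seen. Named by rule were members with an unadjusted p under 0.05 or without overlap, the ATG8 family, Ulk1, Ulk2, Becn1, Sqstm1, Lamp1, Lamp2 and the mitophagy genes, and in each role the genes with the smallest p and the highest level, and in the pathway lists up to 3 genes a list with an unadjusted p under 0.05. Alternatives were DESeq2 1.42.0, its size factors, no low-count filter, a minimum of 10 counts per library and each library left out. Leaving out KO R1 and WT R4 together was chosen after seeing the data. The fits were tested on simulated counts. Choroid plexus markers had no gene that passed the filter. Of the marker lists not described above, progenitor markers summed to 19895 to 28639 and interneuron markers to 2451 to 3257 normalized counts per library.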

Additional observations from a re-analysis of the deposited data

Results flagged for a closer look

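In 4 of 82 groups of 4 libraries, 1 value per member and genotype, the highest or lowest library stood apart from the others by Dixon's test at the 95% level, where chance gives about 4.1. Atg12, part of the ligase complex of LC3 and named only for this value, was highest in KO R2 at 886 normalized counts, with the next KO library at 812. Atg3 was lowest in KO R4 at 1213, with the next at 1308. Gabarapl2 was lowest in KO R2 at 2469, with the next at 2621. Map1lc3a was highest in WT R4 at 1725, with the next WT library at 1028, and its fold change turned sign without that library.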

How the results depend on the processing

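No paired analysis was possible because no column can be tied to an embryo, a litter or a sex. The members past an adjusted p of 0.05 numbered 0 under every alternative run. Over the fits that leave out 1 library, the members with an unadjusted p under 0.05 numbered 0 to 1 (Atg16l2 without KO R4, Atg2b without WT R4) beside 5.03% to 12.4% of all genes, those without overlap 0 to 1 (Atg4c without KO R2 or WT R3, Atg7 without KO R3, Atg16l2 without KO R4, Lamp2 without WT R4) beside 6.02% to 12.2% of all genes, those with a negative log2 fold change 12 to 23, lowest without KO R1, and the median log2 fold change lay between -0.023 and 0.011. Without both KO R1 and WT R4, 1 member, Lamp2, did not overlap, as in 16.6% of all genes. Under DESeq2's Wald test, DESeq2's size factors, no filter and the filter of 10 counts, 18 members were negative. Of 286 values of 22 named members under the alternatives, 248 kept their direction and 38, of 12 members, changed sign, the smallest adjusted p under any alternative being 0.360. The ranges that follow are those with 1 library left out, after the value with all 8. Ulk2 (-0.0021) ranged from -0.031 to 0.029 and was 0.0046, 0.0047, 0.0079 and 0.0057 under those 4, and 0.022 without both. Lamp1 (-0.00060) ranged from -0.043 to 0.077 and was 0.0059, 0.0059, 0.0095 and 0.0070 under those 4, and 0.086 without both. Becn1 (-0.023) ranged from -0.041 to 0.012. Pik3c3 (0.0097) ranged from -0.016 to 0.060. Gabarapl1 (0.0039) ranged from -0.030 to 0.046. Atg3 (0.0029) ranged from -0.011 to 0.032. Atg9a (0.041) ranged from -0.0058 to 0.080. Sqstm1 (0.0032) ranged from -0.050 to 0.081. Pink1 (0.035) ranged from -0.0061 to 0.11. Map1lc3a (-0.16) ranged from -0.27 to 0.086. Optn (-0.13) ranged from -0.34 to 0.16 and was 0.18 without both. Bnip3l (0.023) ranged from -0.0079 to 0.058 and was -0.012 without both. Intervals are for the fold change and rest on the variation between these libraries alone. WT R4 had the lowest depth, and Park2 had too few counts to pass the filter.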
